A study of Mus musculus with 9 samples.

Results

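Cells of a vessel wall hold to each other through tight junctions, which seal the gap between neighbours, and adherens junctions, which carry the mechanical load. The values of 9 genes of these junctions were examined here, of 54532 genes measured in B.END3 cells after photodynamic intervention (PDT). They were picked by name. Ocln, Cldn5, F11r and Jam2 encode membrane proteins of the tight junction, and Tjp1 and Cgn encode its scaffold proteins on the cytoplasmic side. Cdh5 and Cdh2 encode the adherens junction cadherins, and Ctnnb1 encodes the catenin bound to their tails. After the higher light dose, F11r, Tjp1 and Ctnnb1 were modestly higher than in control cells, and 53.2% of all tested genes differed. The call of Ctnnb1 rested on single libraries. Cldn5, Jam2 and Cgn were at or near 0 in every group.

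In the endothelium of the brain, claudin-5 is the main sealing claudin and VE-cadherin, the product of Cdh5, is the endothelial cadherin. Occludin and the junctional adhesion molecules are laid down beside the claudins, and ZO-1, the product of Tjp1, ties them to the actin cytoskeleton. N-cadherin, the product of Cdh2, binds the same catenins as VE-cadherin, and beta-catenin also serves as a transcriptional coactivator of the Wnt pathway when it is not degraded.

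The B.END3 line was derived from endothelium of the mouse brain, and the labels give mouse as the organism and C57BL/6 as the strain, although the growth protocol calls the cells rat. The reads were mapped to the mouse, and the part of this conflict in the values was not tested. RNA sequencing covered 3 libraries of untreated cells (Ctrl), 3 of cells given a light dose of 10 J/cm2 (Ep1) and 3 of cells given 20 J/cm2 (Ep2). Both treated groups were grown to a monolayer, held with 300 µg/mL of the photosensitizer porfimer sodium for 90 min and then lit at 635 nm and 100 mW/cm2. All groups are 1 line, so none is a second source of endothelial cells. The labels do not say whether the libraries of a group came from separate cultures, so the p-values measure the spread between these libraries, which may be technical. No group had the photosensitizer or the light alone, so the effects of either cannot be told apart, and the time from light to lysis is not given in the sources used here.

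Positions of the 9 genes are those of GRCm38. Ctnnb1 (ENSMUSG00000006932) spans chr9:120929216-120960507, Tjp1 (ENSMUSG00000030516) chr7:65296165-65527781 and F11r (ENSMUSG00000038235) chr1:171437535-171464603. Cdh2 (ENSMUSG00000024304) spans chr18:16588877-16809246, Ocln (ENSMUSG00000021638) chr13:100496507-100552718, Cdh5 (ENSMUSG00000031871) chr8:104101625-104144511 and Cgn (ENSMUSG00000068876) chr3:94760069-94786492. Cldn5 (ENSMUSG00000041378) at chr16:18776847-18778262 and Jam2 (ENSMUSG00000053062) at chr16:84774123-84825928 share chromosome 16. Whether the counting used strand is not given in the sources used here. The only listed gene overlapping one of them with more than 2 fragments in any library was Ulk4, which is antisense to Ctnnb1 and had at most 46, against 11184 to 15632 on Ctnnb1.

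Levels are in FPKM, fragments scaled to the length of the gene and to the size of the library, so that levels of different genes can be set side by side. Between 16240688 and 19509225 fragments per library fell on genes, and 20375 to 20981 genes were above 0 in the Ep2 libraries against 19935 to 20146 in the other libraries. Pairs of libraries within a group had a chi-square per degree of freedom of 2.81 to 15.3, above counting noise. Replicate 1 of Ep2 stood apart most, at 10.1 from replicate 2 and 15.3 from replicate 3, which were 5.00 from each other.

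The labelled cell type was checked against 20 endothelial marker genes. Only 4 of them reached an FPKM of 1 in at least 3 libraries, with means over all libraries of 8.34 for Flt1, 6.36 for Mfsd2a, 1.98 for Egfl7 and 1.19 for Eng. Erg, Emcn, Robo4, Sox17 and Slco1a4 were at 0 in all 9 libraries, and Pecam1, a defining adhesion molecule of endothelium, had a mean of 0.158. The summed level of the list was 18.3 to 19.3 in Ctrl, 18.6 to 21.0 in Ep1 and 19.3 to 20.6 in Ep2. The list includes Cdh5 and Cldn5. Most defining markers of the labelled type were thus absent or low in the untreated cells and in both treated groups.

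Among markers of other cell types, 5 of 12 epithelial genes reached that level, led by the keratins Krt8, Krt18 and Krt19 with means of 627.7, 262.1 and 202.7 FPKM, while Cdh1 (E-cadherin) had a mean of 0.0434. Col3a1 at 35.1, Fn1 at 23.7 and Col1a1 at 6.80 led the 10 fibroblast genes, of which 3 reached it. Of the 10 mural cell genes only Des did, at 2.85 (then Pdgfrb at 0.309 and Notch3 at 0.243), and of the 10 macrophage and microglia genes none did, the highest being Tmem119 at 0.464, Csf1r at 0.131 and P2ry12 at 0.0921. Of the 10 astrocyte and neuron genes 2 did, Aldoc at 44.9 and Tubb3 at 1.34, before Snap25 at 0.647.

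The junction genes covered a wide range of levels in untreated cells, as the plot of levels by gene shows. Beta-catenin stood first, with a mean FPKM of 141 ± 3.43 (SD, n = 3) in Ctrl, above 99.4% of all genes measured. ZO-1 followed at 30.2 ± 1.07, F11r (JAM-A) at 13.9 ± 0.397 and N-cadherin at 10.3 ± 0.162. Occludin came next at 1.33 ± 0.132, and VE-cadherin, the gene that defines endothelial adherens junctions, lay below 1 at 0.857 ± 0.0471. Each of these 6 genes was separate from its neighbour in the order, in all libraries of all 3 groups.

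Cgn, Cldn5 and Jam2 were at or near 0. Cgn (cingulin, a tight junction scaffold) had FPKM of 0.0947, 0.0425 and 0.0626 in Ctrl, of 0, 0.0594 and 0.0179 in Ep1, and of 0.0174, 0.0533 and 0.0100 in Ep2. These came from 40 fragments in all, 23 of them in Ctrl, and the Ctrl libraries overlapped with both treated groups.

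Cldn5 was at 0 in 8 of 9 libraries. The exception was replicate 3 of Ctrl, where 2 fragments gave an FPKM of 0.0761. A count of 0 allows up to 3 fragments, a floor that stood for an FPKM of 0.108 to 0.128 for this gene and that covers counting error only. Jam2 (JAM-B) had an FPKM of 0.0343, 0.0169 and 0.00891 in Ctrl, of 0.0627, 0.0296 and 0.0446 in Ep1, and of 0.0260, 0.00884 and 0.0299 in Ep2. It rested on 29 fragments over 9 libraries, and all groups overlapped. In Ctrl, Cldn5 overlapped in level with both Cgn and Jam2. In Ep1 and Ep2 every Jam2 library, and in Ep2 every Cgn library, was above Cldn5 at 0, yet all these values lay under the floor of Cldn5. In a limma fit of log2(FPKM + 1) without a filter, none of these 3 genes had an adjusted p below 0.05. That scale understates changes at levels this low. Cgn had 23 fragments in Ctrl, 8 in Ep1 and 9 in Ep2, and whether these counts differ was not tested.

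**Figure D1:**
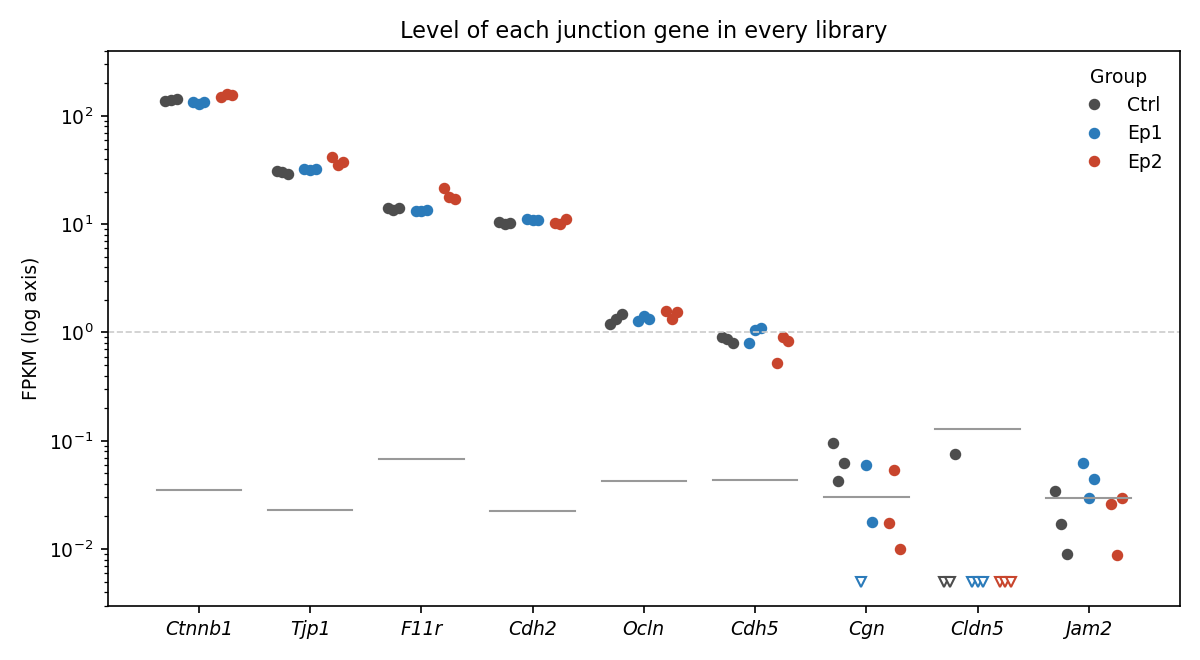
FPKM (log axis) of each of the 9 junction genes in every library, with 3 points per group for Ctrl, Ep1 and Ep2, the dashed line at an FPKM of 1 and grey bars at the highest level that a count of 3 fragments stands for in any library. Open triangles at the bottom are libraries at 0; Cldn5 is at 0 in 8 of 9 libraries, and Cgn, Cldn5 and Jam2 lie far below the other genes.

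The promoters of the 3 genes that were higher in Ep2 are shown beside that of Cldn5, which was at 0 there, as a view of the sequence in front of each start. Each is the 250 bases before a transcription start in RefSeq (GRCm38.p6), read 5′ to 3′ on the strand of the gene: F11r at chr1:171437311-171437560 on the plus strand, Tjp1 at chr7:65371245-65371494 on the minus strand, Ctnnb1 at chr9:120933150-120933399 on the plus strand and Cldn5 at chr16:18776597-18776846 on the plus strand. The starts of F11r, Tjp1 and Ctnnb1 lie inside the spans of the listed genes, so other starts exist and the windows overlap those spans. Capitals mark matches on either strand to AP-1 (TGANTCA), an antioxidant response element (TGANNNNGC), the GC box (GGGCGG) or the E-box CAGGTG.
F11r: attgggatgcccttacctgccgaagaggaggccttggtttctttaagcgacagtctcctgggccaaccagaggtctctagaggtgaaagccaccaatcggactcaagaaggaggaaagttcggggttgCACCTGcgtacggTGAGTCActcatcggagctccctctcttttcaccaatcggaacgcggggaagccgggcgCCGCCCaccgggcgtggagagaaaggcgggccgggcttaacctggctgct
Tjp1: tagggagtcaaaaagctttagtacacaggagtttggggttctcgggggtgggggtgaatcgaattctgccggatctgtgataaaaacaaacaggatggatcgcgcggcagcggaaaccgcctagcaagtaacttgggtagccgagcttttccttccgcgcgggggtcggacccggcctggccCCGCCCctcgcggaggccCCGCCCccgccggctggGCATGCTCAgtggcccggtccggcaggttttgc
Ctnnb1: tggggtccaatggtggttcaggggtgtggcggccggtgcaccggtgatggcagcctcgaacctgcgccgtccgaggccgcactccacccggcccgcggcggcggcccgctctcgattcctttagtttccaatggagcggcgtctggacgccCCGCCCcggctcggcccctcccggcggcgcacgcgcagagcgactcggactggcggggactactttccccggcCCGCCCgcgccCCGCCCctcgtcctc
Cldn5: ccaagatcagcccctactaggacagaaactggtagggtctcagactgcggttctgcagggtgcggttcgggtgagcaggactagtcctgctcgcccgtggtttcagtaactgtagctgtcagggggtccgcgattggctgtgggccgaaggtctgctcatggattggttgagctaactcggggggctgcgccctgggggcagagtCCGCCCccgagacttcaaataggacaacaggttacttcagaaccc

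The F11r window held 1 AP-1 match, 1 E-box and 1 GC box, the Tjp1 window 1 antioxidant response element and 2 GC boxes, the Ctnnb1 window 3 GC boxes, and the Cldn5 window 1 GC box. No matches overlapped. Of 32851 windows of this length in front of mouse gene starts, 6.75% held an AP-1 match, 35.2% the antioxidant response element, 32.7% a GC box and 17.2% the E-box, while the ETS letters CCGGAA (12.03% of windows) and TATAAA (12.4%) were in none of the 4. A second RefSeq window of Ctnnb1, at chr9:120933328-120933577, is not shown and held 1 TATAAA, 1 antioxidant response element and 2 GC boxes. The windows held 17 (F11r), 22 (Tjp1), 35 (Ctnnb1) and 12 (Cldn5) CpG dinucleotides against a median of 6 over all windows. RefSeq windows were matched for 6 of the 9 genes by symbol.

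To ask how the junction genes respond to light dose, they were tested within a fit of all genes. Genes were tested with limma on log2(FPKM + 1) where 3 or more libraries reached an FPKM of 1, which left 11727, on a scale that understates the change of low genes. Ctnnb1, Tjp1, F11r, Cdh2 and Ocln passed this filter. Cdh5 reached 1 in only 2 libraries and was left out, as were Cgn, Cldn5 and Jam2. An adjusted p below 0.05 was the threshold, and DEGs also had an absolute log2 fold change above 0.6. Where all libraries of a group lay above or below those of another, the share of all tested genes so separated was not counted.

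After 20 J/cm2, 3 of the 5 tested genes rose, none fell, and none was a DEG. F11r rose by the largest factor, 1.35 times in mean FPKM, then Tjp1 by 1.26 and Ctnnb1 by 1.10, while neither Cdh2 nor Ocln passed the test. Over all tested genes 53.2% passed in this comparison, 23.9% higher and 29.3% lower, and 9.17% were DEGs. The share of the junction genes that passed was thus close to the background. The median log2 fold change was 0.14 over the 5 genes and -0.03 over all tested genes. In bulk RNA, fewer cells of a type and less RNA per cell cannot be told apart.

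F11r, which encodes a homophilic adhesion molecule at the tight junction, had an FPKM of 14.3, 13.5 and 14.1 in Ctrl and of 21.7, 17.8 and 17.0 in Ep2. Every Ep2 library was above every Ctrl library, and replicate 1 of Ep2 stood above the other two. The log2 fold change was 0.40 (SE 0.0770, 95% interval 0.23 to 0.57, limma adjusted p = 0.00188). Without that library it was 0.30 (adjusted p = 0.000489).

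Tjp1 had an FPKM of 31.3, 30.2 and 29.2 in Ctrl and of 41.5, 35.2 and 37.6 in Ep2. The groups did not overlap, and replicate 1 of Ep2 was again the highest. Its log2 fold change was 0.32 (SE 0.0585, 95% interval 0.19 to 0.45, limma adjusted p = 0.00138). Leaving out that replicate gave 0.26 (adjusted p = 0.00152).

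Ctnnb1 had an FPKM of 138, 141 and 145 in Ctrl and of 151, 161 and 156 in Ep2. All Ep2 libraries were higher than all Ctrl libraries, by a margin smaller than for the other two genes. Its log2 fold change was 0.14 (SE 0.0394, 95% interval 0.05 to 0.23, limma adjusted p = 0.0141). The call rested on single libraries, since the adjusted p was 0.0576 without replicate 1 of Ctrl and 0.0560 without replicate 2 of Ep2.

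The other members did not pass. N-cadherin had an FPKM of 10.4, 10.1 and 10.2 in Ctrl and of 10.2, 9.98 and 11.2 in Ep2, with a log2 fold change of 0.02 (95% interval -0.09 to 0.13, limma adjusted p = 0.734). Occludin had 1.20, 1.32 and 1.47 in Ctrl against 1.57, 1.33 and 1.55 in Ep2, with a log2 fold change of 0.09 (95% interval -0.09 to 0.27, limma adjusted p = 0.367). The groups overlapped for both genes. The intervals include falls to -0.09 for both genes, and rises of up to 0.13 for Cdh2 and 0.27 for Ocln. Equal levels are thus not shown. The scale understates the change of Ocln, which was 0.15 with 0.1 in place of 1 added to the FPKM and did not pass.

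VE-cadherin had an FPKM of 0.901, 0.864 and 0.807 in Ctrl, of 0.799, 1.05 and 1.09 in Ep1 and of 0.524, 0.903 and 0.831 in Ep2. These values came from 42 to 85 fragments per library, and all groups overlapped. On the recovered fragments (limma-voom), which let this gene through, the log2 fold change was -0.23 in Ep2 (95% interval -0.69 to 0.23, adjusted p = 0.401) and 0.18 in Ep1 (95% interval -0.25 to 0.61, adjusted p = 0.614). The ratio of Cdh2 to Cdh5, free of library scaling, was 11.99 ± 0.594 (SD, n = 3) in Ctrl, 11.5 ± 2.22 in Ep1 and 14.6 ± 4.30 in Ep2, with overlapping groups.

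Markers of other cell types moved with Ep2 too. The summed epithelial list lay at 1030 to 1082 FPKM in Ctrl, 938.6 to 1043 in Ep1 and 1157 to 1375 in Ep2, and 4 of its 5 tested genes rose in Ep2, while Esrp1 and Krt7 were at 0 in all libraries. In Ep2 against Ctrl 23.9% of all tested genes were higher and 29.3% lower. Cdh1 was low throughout and rested on 33 fragments over 9 libraries. Its Ep2 libraries, at 0.0467 to 0.103, were above its Ep1 libraries, at 0.0118 to 0.0353, but overlapped with Ctrl, at 0.0118 to 0.0671. The astrocyte and neuron list summed to 33.6 to 38.5, 31.1 to 40.1 and 67.3 to 75.8 in the same order, of which Aldoc, a glycolytic enzyme, made up most, while Aqp4 and Rbfox3 were at 0. The fibroblast list summed to 64.8 to 68.9 in Ctrl, 57.3 to 65.6 in Ep1 and 66.2 to 76.9 in Ep2, and the mural list to 3.23 to 4.10, 2.97 to 3.66 and 3.82 to 4.95. The macrophage and microglia list stayed at 0.493 to 1.05 in all libraries. Of the endothelial list 4 genes were tested, and in Ep2 Flt1 rose (log2 fold change 0.59) and Mfsd2a fell (log2 fold change -0.57), and the sums of the 3 groups overlapped. The part of these lists in the junction result was not tested.

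**Figure D2:**
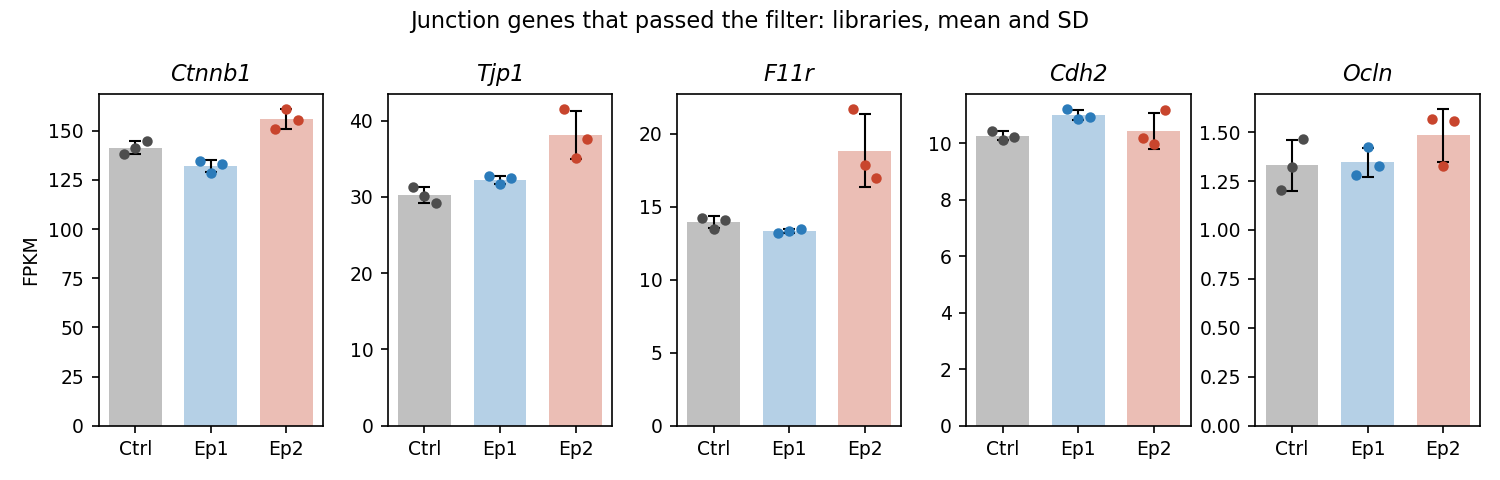
FPKM of the 5 junction genes that passed the filter, by group, each panel with its own axis from 0, with bars at the mean of 3 libraries, error bars of 1 SD and a point for each library. F11r, Tjp1 and Ctnnb1 have all Ep2 points above all Ctrl and Ep1 points, and Cdh2 and Ocln do not. The share of all tested genes so separated was not counted.

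After 10 J/cm2, none of the 5 tested genes passed. Over all tested genes 11.3% passed, 6.32% higher and 4.97% lower, and 0.793% were DEGs. Ctnnb1, at 135, 128 and 133 FPKM in Ep1, lay below all Ctrl libraries, with a log2 fold change of -0.10 (95% interval -0.19 to -0.01, unadjusted p = 0.0333, limma adjusted p = 0.134). Among the 5 genes it alone had an unadjusted p below 0.05.

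The other values were close to those of Ctrl. Tjp1 had an FPKM of 32.7, 31.7 and 32.5 in Ep1 (log2 fold change 0.09, limma adjusted p = 0.327). Cdh2 had 11.2, 10.8 and 10.9 (log2 fold change 0.09, limma adjusted p = 0.249), and F11r 13.2, 13.3 and 13.5 (log2 fold change -0.06, limma adjusted p = 0.642). Ocln had 1.28, 1.43 and 1.33 (log2 fold change 0.01, limma adjusted p = 0.945), a sign that turned negative under 3 of 17 alternatives. Tjp1 and Cdh2 were above the highest Ctrl library in all 3 Ep1 libraries and F11r was below the lowest. These gaps were small against the spread estimated over all 9 libraries, which include Ep2. With only Ctrl and Ep1 fitted, the limma adjusted p was 0.128 for Tjp1, 0.128 for Cdh2 and 0.293 for F11r. How common such gaps were over all tested genes was not counted.

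Between the doses, the same 3 genes as in Ep2 against Ctrl were called, all higher in Ep2. Ep1 and Ep2 were each set against the same Ctrl libraries, so the 2 comparisons with Ctrl are not independent, and the direct test of Ep2 against Ep1 is the test of dose. F11r was higher by a log2 fold change of 0.46 (SE 0.0770, 95% interval 0.29 to 0.63, limma adjusted p = 0.00120). Ctnnb1 was higher by 0.24 (SE 0.0394, 95% interval 0.15 to 0.33, limma adjusted p = 0.00115), and Tjp1 by 0.23 (SE 0.0585, 95% interval 0.10 to 0.36, limma adjusted p = 0.0108).

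For F11r, Ctnnb1 and Tjp1 every Ep2 library was above every Ep1 library. Cdh2 had a log2 fold change of -0.07 (limma adjusted p = 0.281) and Ocln of 0.08 (limma adjusted p = 0.446), with overlapping groups. Over all tested genes 44.0% passed in this comparison, 18.8% higher and 25.2% lower, and 5.90% were DEGs, none of them a member. Median centring of the libraries changed that split of all genes from 2206 higher and 2950 lower to 2974 and 2383, and left the 3 junction genes called. Marker genes moved in this comparison as well: 5 of 5 tested epithelial, 2 of 3 fibroblast and 1 of 1 mural genes were higher in Ep2, as was 1 of 4 endothelial genes, with 1 lower, and their part was not tested. F11r lay at the 94.8th percentile of log2 fold changes among tested genes, Ctnnb1 at 82.6 and Tjp1 at 81.8.

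**Figure D3:**
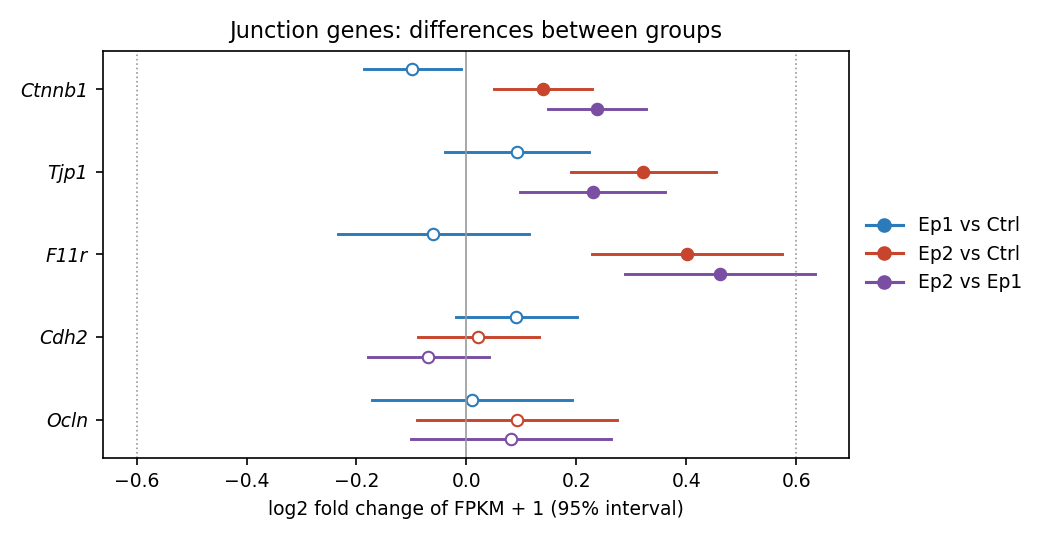
Log2 fold change of FPKM + 1 for the 5 tested junction genes in the 3 comparisons, with 95% intervals from limma; filled points have an adjusted p below 0.05 and dotted lines mark 0.6 on either side of 0. F11r, Tjp1 and Ctnnb1 are filled for Ep2 against Ctrl and for Ep2 against Ep1, and no gene is filled for Ep1 against Ctrl.

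Junction genes were next set beside the relatives that belong to the same family, in levels per length. Cdh2 made up 75.5% ± 2.26 (SD, n = 3) of the summed FPKM of 19 cadherins in Ctrl, 76.6% ± 0.640 in Ep1 and 79.0% ± 2.97 in Ep2. Cdh24 was the next cadherin, at 1.60 ± 0.207 FPKM in Ctrl. It was the only other cadherin tested, and fell in Ep2 to 0.982 ± 0.270 (log2 fold change -0.40, limma adjusted p = 0.0150, called in 14 of 16 alternatives). Of the 17 cadherins other than Cdh2 and Cdh5, 10 were below an FPKM of 0.1 in all libraries, 5 of them at 0 throughout.

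Among the claudins, which form the strands of tight junctions, Cldn12 was the highest, at 5.28 ± 0.128 in Ctrl, 4.86 ± 0.641 in Ep1 and 5.18 ± 0.334 FPKM in Ep2, and made up 69.3%, 65.3% and 61.0% of the sum over 24 claudins. It was the only claudin tested and did not pass in Ep2 (log2 fold change -0.02, limma adjusted p = 0.822). Of the 23 claudins other than Cldn5 in the table, 12 were below an FPKM of 0.1 in all libraries, 7 of them at 0 throughout. Among 12 other tight junction membrane genes none passed the filter, and Cxadr, an adhesion molecule of the same superfamily as F11r, was the highest, with 0.771, 0.608 and 0.750 FPKM in Ctrl and 1.60, 0.932 and 0.944 in Ep2.

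F11r was nearly the whole of its family. It made up 99.8% of the summed FPKM of F11r, Jam2 and Jam3 in Ctrl, 99.2% in Ep1 and 99.3% in Ep2. In the cingulin family Cgn was near 0, and its paralog Cgnl1 (paracingulin), named after its values were seen, stood at 8.41 ± 0.212 FPKM in Ctrl and 9.09 ± 0.597 in Ep1. It rose to 11.4 ± 0.440 in Ep2 (log2 fold change 0.39, limma adjusted p = 0.000285), a call kept in all 17 alternatives.

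**Figure D4:**
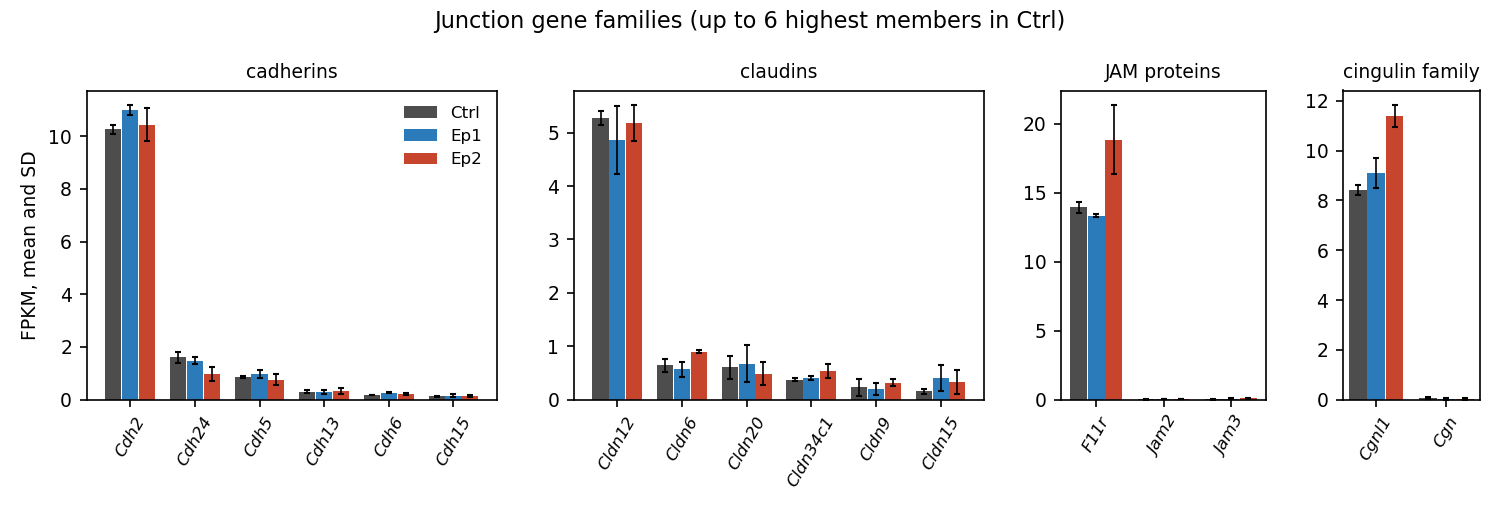
Mean FPKM with SD (n = 3 libraries) of up to 6 members of 4 junction gene families, ordered by level in Ctrl and coloured by group, each panel with its own axis from 0. Cdh2, Cldn12, F11r and Cgnl1 stand first in their families, and Cdh5, Jam2 and Cgn are low in theirs.

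The wider junction and beta-catenin pathway was followed with 165 further genes in 11 lists. Of these, 158 were in the table and 69 were tested. In Ep2 against Ctrl 26 rose (37.7%) and 17 fell (24.6%), with 5 DEGs higher and 1 lower, next to 23.9% higher and 29.3% lower over all tested genes. That background split of 2800 higher and 3436 lower turned to 3311 and 2971 with median centring and was 3046 and 3047 with correction for length and GC. In Ep1 5 rose (7.25%) and 3 fell (4.35%), next to 6.32% and 4.97% over all genes. In Ep2 against Ep1 22 rose (31.9%) and 14 fell (20.3%), next to 18.8% and 25.2%.

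Among tight junction scaffolds and polarity proteins 18 were tested, and 6 rose and 6 fell in Ep2. Over all tested genes 23.9% rose and 29.3% fell there. Magi3, a membrane-associated scaffold, rose from 5.97 ± 0.271 to 10.1 ± 0.578 FPKM (log2 fold change 0.67, limma adjusted p = 4.44e-05). Prkci, an atypical protein kinase C of the polarity complex, rose from 16.5 ± 1.12 to 23.1 ± 0.726 (log2 fold change 0.47, limma adjusted p = 7.62e-05). Ybx3, a ZO-1-associated nucleic acid binding protein and the highest of the list, fell from 168 ± 3.85 to 137 ± 1.82 (log2 fold change -0.30, limma adjusted p = 0.000109, or -0.11 with adjusted p = 0.0393 after correction for length and GC).

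Amotl2, an angiomotin family scaffold, was the only gene of that list called in Ep1. It fell from 5.53 ± 0.354 FPKM in Ctrl to 3.93 ± 0.353 in Ep1 (log2 fold change -0.40, limma adjusted p = 0.0105) and stood at 3.35 ± 0.126 in Ep2 (log2 fold change -0.58, limma adjusted p = 0.000101). Its libraries were separate from Ctrl at both doses.

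Among the partners of beta-catenin at the membrane, of 5 tested other catenins 1 rose in Ep2 and none fell. This was Ctnna1 (alpha-catenin, the link from beta-catenin to actin), from 116 ± 1.84 to 154 ± 2.88 FPKM (log2 fold change 0.41, limma adjusted p = 7.78e-05). Among 15 tested genes of the adherens junction plaque and its actin links, 7 rose and 3 fell in Ep2. Over all tested genes 23.9% rose and 29.3% fell there. Vcl (vinculin, recruited to alpha-catenin under tension) rose from 32.2 ± 0.706 to 53.9 ± 2.33 (log2 fold change 0.72, limma adjusted p = 4.03e-06).

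The alpha-actinins of that list moved in opposite directions. Actn1 rose from 49.4 ± 1.60 to 64.2 ± 0.598 FPKM (log2 fold change 0.37, limma adjusted p = 7.26e-05). Actn4, the highest of the list, fell from 118 ± 3.01 to 98.6 ± 4.22 (log2 fold change -0.26, limma adjusted p = 0.000636, or -0.15 with correction for length and GC). Ajuba, a LIM protein of the junction plaque, fell at both doses, from 24.6 ± 0.814 to 17.7 ± 1.37 in Ep1 (log2 fold change -0.46, limma adjusted p = 0.00538) and 14.2 ± 0.267 in Ep2 (log2 fold change -0.75, limma adjusted p = 1.03e-05).

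Of 5 tested nectin and afadin genes, 1 rose and 1 fell in Ep2, where 23.9% of all tested genes rose and 29.3% fell. Pvr, the nectin-like poliovirus receptor, had the largest rise among the named junction genes and was higher at each dose step, from 21.7 ± 0.649 FPKM in Ctrl to 30.9 ± 2.62 in Ep1 (log2 fold change 0.49, limma adjusted p = 0.00560) and 42.3 ± 2.04 in Ep2 (log2 fold change 0.93, limma adjusted p = 6.53e-06). Ep2 was also higher than Ep1 (log2 fold change 0.44, limma adjusted p = 0.000466). Nectin1, an adhesion molecule of adherens junctions, fell from 3.90 ± 0.497 to 3.03 ± 0.354 in Ep2 (log2 fold change -0.28, limma adjusted p = 0.0219), a call kept in 11 of 17 alternatives.

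Of 12 desmosome genes 4 were tested, and all 4 changed in Ep2, where 53.2% of all tested genes did. The desmosomal cadherins were too low to test. Dsg1a, Dsg2, Dsg3, Dsc1 and Dsc3 were among 6 genes below an FPKM of 0.1 in all libraries, and Dsc2 had a mean of 0.128 in Ctrl. Dsp (desmoplakin, which anchors keratin filaments) rose from 6.07 ± 0.152 to 9.61 ± 1.05 FPKM (log2 fold change 0.58, limma adjusted p = 0.000276), and Pkp3 (plakophilin 3) from 2.78 ± 0.257 to 5.00 ± 0.682 (log2 fold change 0.66, limma adjusted p = 0.000446). Pkp4, the highest of the list, fell from 22.1 ± 0.566 to 16.6 ± 0.515 (log2 fold change -0.39, limma adjusted p = 5.35e-05). The epithelial markers, keratins among them, moved with these rises, and their part was not tested.

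The complex that marks beta-catenin for degradation had 8 tested genes, of which 4 rose and 3 fell in Ep2, and 3 rose in Ep1. Gsk3b, its kinase, rose from 8.53 ± 0.289 FPKM in Ctrl to 10.7 ± 0.310 in Ep1 (log2 fold change 0.30, limma adjusted p = 0.00879) and 12.4 ± 0.369 in Ep2 (log2 fold change 0.50, limma adjusted p = 2.89e-05). Csnk1a1, the priming kinase, rose by log2 fold changes of 0.20 (limma adjusted p = 0.0225, called in 11 of 17 alternatives) in Ep1 and 0.29 (limma adjusted p = 0.000496) in Ep2, or 0.13 (adjusted p = 0.0452) there with correction for length and GC. Fbxw11, a substrate receptor and the highest of the list, rose by 0.16 in Ep2 (limma adjusted p = 0.0101). Over all tested genes 23.9% rose and 29.3% fell in Ep2, and 6.32% rose in Ep1.

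Axin1, the scaffold of that complex, was higher in Ep1 and lower in Ep2 than in Ctrl. It had an FPKM of 43.3, 42.6 and 41.4 in Ctrl, of 47.6, 48.5 and 46.4 in Ep1 and of 38.2, 38.5 and 38.2 in Ep2. All Ep1 libraries lay above and all Ep2 libraries below those of Ctrl. The difference from Ep1 to Ep2 was -0.30 on the log2 scale (limma adjusted p = 0.000185), that in Ep1 0.16 (limma adjusted p = 0.0270, called in 10 of 17 alternatives) and that in Ep2 -0.14 (limma adjusted p = 0.00809, or -0.09 with correction for length and GC).

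Btrc, a substrate receptor like Fbxw11, fell from 1.14 ± 0.0945 to 0.782 ± 0.0919 FPKM in Ep2 (log2 fold change -0.26, limma adjusted p = 0.0289), a call kept in 9 of 13 alternatives. Of 14 genes listed as targets of beta-catenin 5 were tested. Axin2, Nkd1, Sp5, Rnf43 and Lgr5 were among 7 that stayed below an FPKM of 0.1 in all libraries. The tested targets did not move one way, as 1 rose and 2 fell in Ep2, next to 23.9% and 29.3% of all tested genes. Myc rose from 3.35 ± 0.238 to 6.00 ± 0.137 (log2 fold change 0.69, limma adjusted p = 8.58e-05), while Ccnd1 (cyclin D1) fell from 59.8 ± 0.792 to 50.8 ± 3.81 (log2 fold change -0.23, limma adjusted p = 0.00493). Tcf7 fell from 8.34 ± 1.44 to 5.91 ± 0.287 (log2 fold change -0.42, limma adjusted p = 0.0235), a call kept in 11 of 17 alternatives.

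Znrf3, a ligase that removes Wnt receptors, rose in Ep1 from 3.91 ± 0.162 to 5.32 ± 0.295 FPKM (log2 fold change 0.36, limma adjusted p = 0.0472), and this call held in 6 of 17 alternatives. It was lower in Ep2 than in Ep1 (log2 fold change -0.51, limma adjusted p = 0.00292). Of the transcription factors known from the switch between cadherins 7 were tested. In Ep2, where 23.9% of all tested genes rose and 29.3% fell, 3 of these factors rose and none fell. Twist1, the highest, had 27.8 ± 1.20 FPKM in Ctrl and 26.9 ± 2.36 in Ep2 (log2 fold change -0.05, limma adjusted p = 0.536). Grhl2, an epithelial factor that is also in the epithelial list, rose from 1.18 ± 0.0974 to 1.95 ± 0.0735 (log2 fold change 0.44, limma adjusted p = 0.000924), and Zeb2, a repressor of E-cadherin, from 2.38 ± 0.212 to 4.004 ± 0.586 (log2 fold change 0.56, limma adjusted p = 0.000970, or 0.33 with correction for length and GC).

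**Figure D5:**
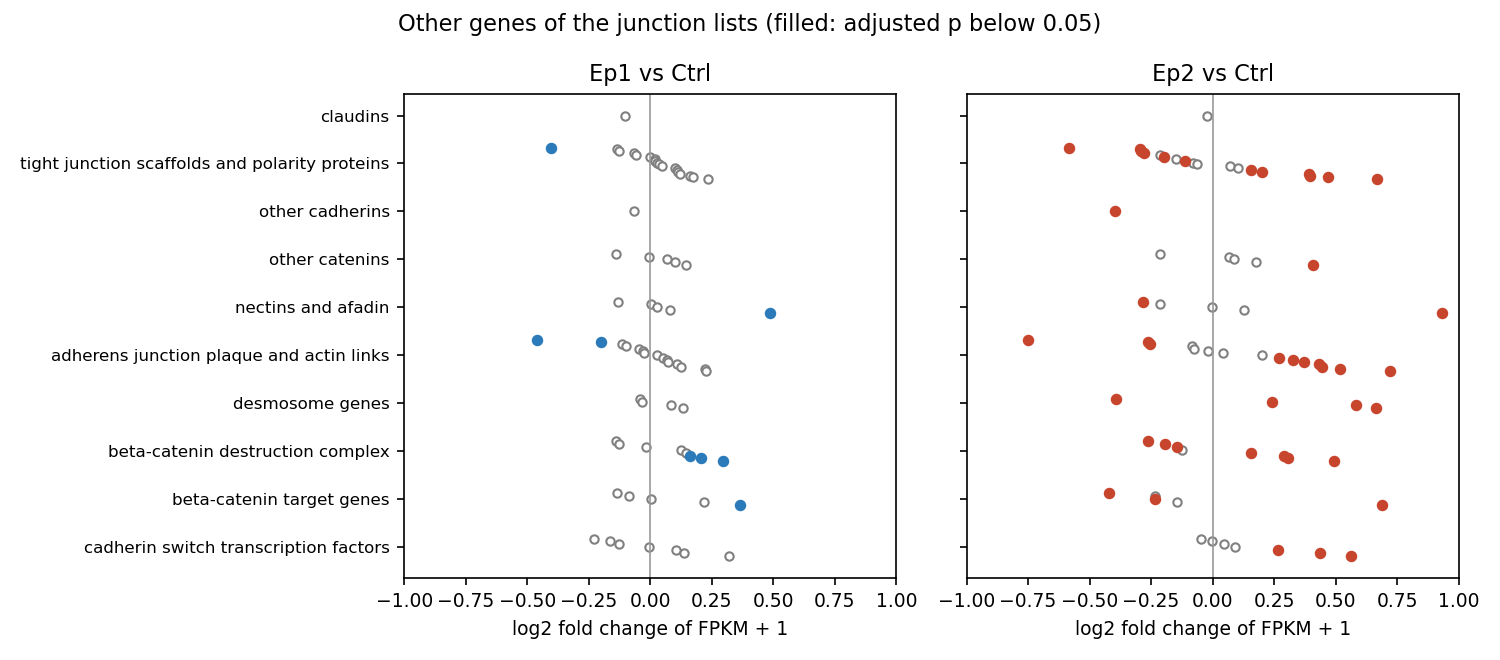
Log2 fold change of FPKM + 1 of the 69 tested genes of the further lists (rows; 1 list had none) for Ep1 and Ep2 against Ctrl, with filled points at an adjusted p below 0.05. In Ep2 26 genes are filled to the right of 0 and 17 to the left, and in Ep1 5 and 3.

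Across the 9 libraries, the members did not share a single pattern. Pearson's r of log2(FPKM + 1) was 0.89 between Tjp1 and F11r and 0.78 between F11r and Ctnnb1, but -0.38 between Cdh2 and F11r and -0.45 between Cdh2 and Ctnnb1. These values are descriptions over libraries that share 3 groups and their depths. The genes most like each member were Mapk8ip3 (r = 0.99) and Tmem43 (0.99) for F11r, Ythdc1 (0.98) and Fam241a (0.98) for Tjp1, and Ndst2 (0.97) and Natd1 (0.97) for Ctnnb1. For Cdh2 the most like was Tpr (0.94), and for Ocln they were Trappc6b (0.96) and Gm30108 (0.90). An r above 0.9 was reached by 434 tested genes for F11r, by 408 for Tjp1, by 151 for Ctnnb1, by 10 for Cdh2 and by 2 for Ocln.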

How the data were processed

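RNA of 9 libraries of 1 cell line was sequenced as paired-end reads. The deposited values are FPKM, which the authors scaled for gene length and library size. The submitters' processing notes name Bowtie 0.12.2 and mm8 and the methods name GRCm39, while 99.9% of 36418 genes compared overlapped their position on GRCm38 and 12.4% that on GRCm39, so GRCm38 was used. The 9 single tables equal the joint table. FPKM times gene length gave whole fragments (tolerance 0.05) per gene, with totals of 16240688 to 19509225.

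The log2(FPKM + 1) values of genes that reached an FPKM of 1 in 3 or more libraries were fitted with limma (trend, robust; 9 libraries, no covariate), with Benjamini-Hochberg adjustment within each comparison. Alternatives were a pseudocount of 0.1, no filter, an FPKM of 1 in all 9 libraries, median centring, a correction for gene length and GC, a replicate block, a fit without the third group, voom on genes that reached 10 fragments in 3 or more libraries, a minimum log2 fold change of 0.6 and each replicate left out. Named genes are all members and, per list, the highest gene and, in Ep2, the 2 rises and 2 falls with the smallest adjusted p (in Ep1, 1 each), the 3 highest markers per list and the 2 genes most like each member. The members and lists were chosen with earlier results of these data known. The fit was tested on simulated data with the same spread in all groups and larger changes than those of the members. That test therefore does not bear on calls of changes as small as theirs. Replicate numbers did not pair the libraries. The software was R 4.3.3 with limma 3.58.1 and Python 3.11.15 with pandas 2.3.3, numpy 2.4.6 and matplotlib 3.10.9. Some items named by these rules are not reported here.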

Additional observations from a re-analysis of the deposited data

Results flagged for a closer look

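The light doses differed from each other in 3 junction genes, by the direct test of Ep2 against Ep1. The log2 fold change was 0.46 for F11r, 0.24 for Ctnnb1 and 0.23 for Tjp1, each past the threshold, with all 3 Ep2 libraries above all 3 Ep1 libraries. Of all tested genes 44.0% passed in this comparison, and the share with libraries so separated was not counted. For Ctnnb1 the values against the shared Ctrl libraries had opposite signs, -0.10 in Ep1, which did not pass the test, and 0.14 in Ep2. With groups of 3 libraries, no test for single outlying libraries was run. Without replicate 1 of Ep2 the log2 fold change between the doses was 0.36 for F11r, 0.26 for Ctnnb1 and 0.17 for Tjp1, with all 3 calls kept.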

How the results depend on the processing

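The counts of junction genes called (0 in Ep1, 3 in Ep2 and 3 in Ep2 against Ep1) did not change under a pseudocount of 0.1, no filter, a stricter filter, median centring, correction for length and GC, the replicate block (0, 3 and 3), a fit of only the groups compared or voom on fragments. A minimum log2 fold change of 0.6 left 0 in Ep2 and 0 in Ep2 against Ep1. With 1 replicate left out, the counts were 0 to 0, 2 to 3 and 3 to 3, the loss being Ctnnb1 in Ep2 at 0.12 on the log2 scale without Ctrl replicate 1 and 0.12 without Ep2 replicate 2. Values that did not pass turned sign for Ocln in Ep1 (-0.030 with length and GC correction, -0.029 without Ctrl replicate 1, -0.014 without Ep1 replicate 2) and for Cdh2 in Ep2 (-0.024 without Ep2 replicate 3), and the cause was not tested. With other replicates left out they reached 0.052 and 0.051.

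Over all tested genes, calls in Ep1 ranged from 192 to 2192 around 1324 when a replicate was left out. They were 396 with no filter (more genes tested) and 2162 with only the groups compared. The replicate block gave 1051, 6110 and 4983 calls in the 3 comparisons against 1324, 6236 and 5156 without it. Same-numbered libraries correlated at -0.056 to 0.074. The block ended the calls of Btrc in Ep2 and Znrf3 in Ep1 among named genes. Correction for length and GC reduced the Ep2 changes of Ybx3 (-0.11), Csnk1a1 (0.13), Actn4 (-0.15), Axin1 (-0.09) and Zeb2 (0.33) by more than 1.5 times with the calls kept, and ended those of Cdh24 (-0.22), Nectin1 (-0.16) and Tcf7 (-0.26). A pseudocount of 0.1 gave larger changes for Btrc (-0.49), Cdh24 (-0.67) and Grhl2 (0.68). Depth limits Cgn, Cldn5 and Jam2, which rest on 40, 2 and 29 fragments.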
